A study of Mus musculus with 7 samples.

Results

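The 8 genes Otx2, Gbx2, Fgf5, Foxd3, Zic2, Zic5, Sall2 and Tcf15 encode regulators of the formative epiblast and of the anterior ectoderm that forms from it. They were sought by the RefSeq accessions of their transcripts in a table of 20290 mouse genes, and all 8 were found. Sall2 had 2 transcript rows and the row of higher mean was used. In the other 7 genes 1 row was listed. mRNA was sequenced (Lexogen SENSE kit) from E14, a line of mouse embryonic stem cells cultured in 2i, a medium whose inhibitors hold the naive state. Every library came from cells with the same induction cassette, in which the light-switched activator GAVPO drives Brn2 together with a red fluorescent protein (Brn2-RFP). Cells were lit by an LED at 300 µW, and 1 library was made at each of 0, 2, 4, 6, 14, 24 and 48 h. The labels name no clone, no cells without the cassette and no dark control at a later time, so time in culture, light and Brn2 cannot be told apart. Replicates are lacking throughout, and each time below stands for 1 library.

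Naive stem cells held in 2i resemble the epiblast before implantation. On the way to lineage choice they pass through a formative state, in which naive factors are lowered and factors such as Otx2, Foxd3 and the growth factor Fgf5 come up. Otx2 later marks the forebrain and midbrain and Gbx2 the anterior hindbrain, and the mutual repression of these homeobox genes sets the boundary between midbrain and hindbrain. Gbx2 has a second role in embryonic stem cells, where it acts downstream of LIF and Stat3 and favours the naive state. Brn2 (gene symbol Pou3f2) belongs to the POU family and acts in neural progenitors.

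Each deposited value amounts to reads per kilobase of genomic span, introns included, scaled to the size of the library, and the implied depth ran from 7.06 M to 16.17 M reads per library. Pluripotency genes marked every library as stem cell RNA: Pou5f1 lay between 153.7 and 234.8 and Sox2 between 66.8 and 97.0. Pou3f2 was at 77.0, 36.9, 47.4, 96.2, 119.4, 41.3 and 7.19 at 0, 2, 4, 6, 14, 24 and 48 h, so its value did not follow the hours of light. The table does not say whether reads of the cassette count toward that gene. Genes of high GC content were also uneven across the libraries. In the GC-richest 10% of tested genes the median deviation from the gene's own mean was -0.27 (log2) at 0 h and 0.41 at 48 h. Transcripts of the 8 genes had a median GC content of 57.0%, against 51.3% over all tested genes, and 5 of the 8 lay above that middle.

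**Figure D1:**
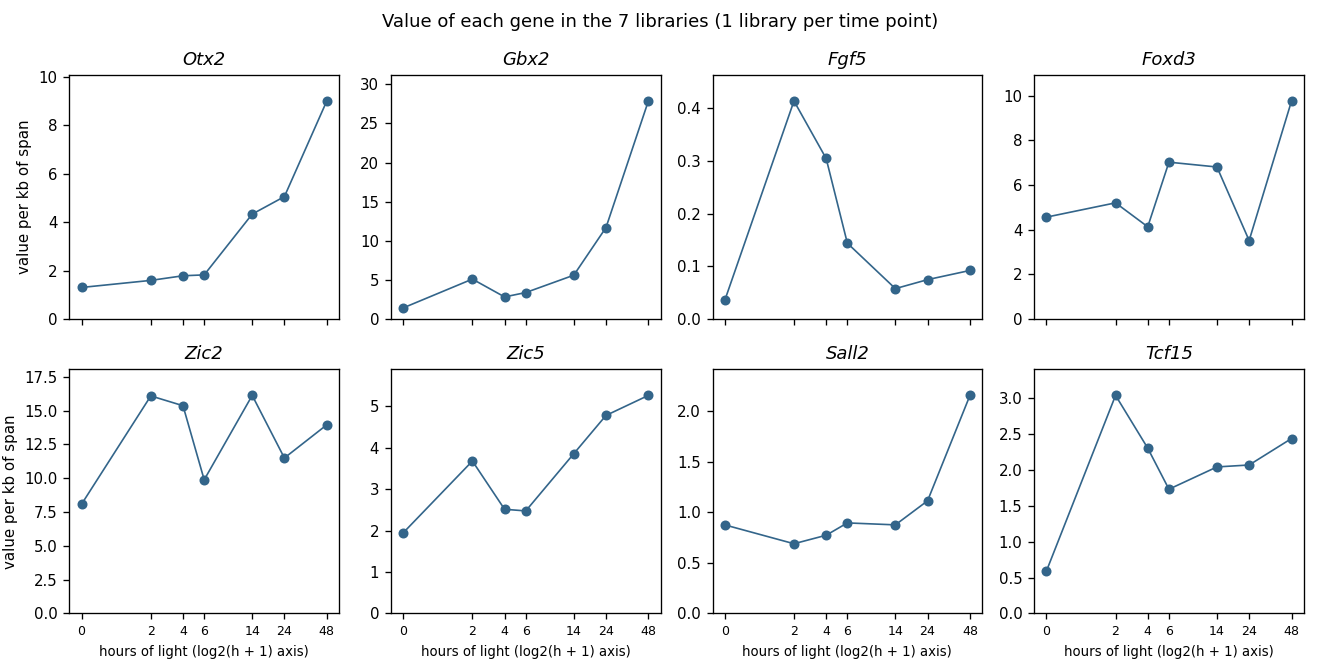
Value per kilobase of span (vertical axes, each from 0) of the 8 genes in the 7 libraries (points), against hours of light on a log2(h + 1) axis. Otx2 and Gbx2 climbed to 9.01 and 27.9 at 48 h, while Fgf5 and Tcf15 were highest at 2 h, at 0.414 and 3.04.

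Otx2 and Gbx2 rose with time, the other 5 tested genes did not pass the test, and Fgf5 was too low to enter it. A straight line in log2(hours + 1) was fitted to log2(value + 1) over the 7 libraries with limma, for the 6409 genes with a mean value of at least 1, and genes with an adjusted p under 0.05 (Benjamini-Hochberg) were called. By this rule 2 of 7 tested members rose and 0 fell, against 0.296% of all tested genes that rose. An unadjusted p under 0.05 was found for 4 of the 7 and for 21.5% of all tested genes. All 7 fitted changes were positive, with a median log2 change from 0 to 48 h of 0.68 against 0.006 over all tested genes. On reads recovered from the values, limma-voom also called 2 members up and 0 down, out of 8, where 2.25% of the 13434 genes tested on reads rose and 0.819% fell. These shares hold for every count on reads over time below.

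Otx2, the paired-type homeobox factor of the epiblast and the anterior neural plate, stood at 1.30, 1.60, 1.79, 1.82, 4.33, 5.06 and 9.01 in order of time. Each library was above the one before it. The step from 6 h to 14 h more than doubled the value, and no library from 14 h on overlapped with one up to 6 h. About 91, 57, 59, 117, 186, 237 and 685 reads stood behind these values. The fitted log2 change was 2.19 ± 0.33 (SE, adjusted p = 0.0364 by limma), the 6th lowest p of all tested genes. Leaving out 2 h, 4 h, 24 h or 48 h ended the call, at adjusted p = 0.059, 0.0661, 0.0514 and 0.272 by limma. Those fits called 7, 1, 1 and 1 of all 6409 genes up, against 19 with every library. The transcript of Otx2 has a GC content of 49.5%, below the middle of the tested genes, and once each library's GC trend was taken out the fitted change was 2.21 ± 0.33 (adjusted p = 0.0555 by limma). In that fit 0 of all genes were called and 1169 had an unadjusted p under 0.05. The gene overlaps the long noncoding RNA gene Otx2os1 on the opposite strand and the unclassified gene Gm49154 on its own strand. Overlap was taken over the whole gene, and how much falls within the counted transcript was not determined. No source used here says whether counting used strand, so in any shared part reads of these genes cannot be told apart.

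Gbx2, the homeobox partner of Otx2 at the midbrain-hindbrain boundary, was at 1.42, 5.11, 2.83, 3.39, 5.604, 11.7 and 27.9. It was lowest at 0 h, higher at 2 h than at 4 and 6 h, and highest at 48 h. The 48 h library had about 1454 reads and the 0 h library about 68. The value at 2 h was 3.59 times that at 0 h, and the whole reads scaled to depth gave 3.62 with an exact 95% interval of 2.67 to 4.94. That interval and those below cover counting error only and say nothing of the spread between cultures. The fitted log2 change was 3.15 ± 0.52 (SE, adjusted p = 0.0413 by limma), and by size it ranked 12th among the rises of all tested genes. Leaving out 0 h, 4 h, 24 h or 48 h ended the call, at adjusted p = 0.0515, 0.0661, 0.0514 and 0.294 by limma. Those fits called 52, 1, 1 and 1 of all 6409 genes up, against 19 with every library. Its transcript is GC-rich, at 59.4%. Correcting for GC gave 2.52 ± 0.52 (adjusted p = 0.0809 by limma). Gbx2 overlaps the noncoding gene D130058E05Rik on the opposite strand, with the same limit as for Otx2os1.

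The stretches from 250 bases before to 50 bases after the start of these genes are shown because Otx2 and Gbx2 rose and were highest at 48 h, while Fgf5, described below, was highest at 2 h. They come from RefSeq on GRCm38.p6, while the reads were aligned to mm9, and are printed along the strand of the gene. Of the 8 genes 6 had an entry, and Zic2 and Tcf15 had none. Otx2 has 4 listed starts, of which the second shown is the one nearest to the 5′ end of the transcript behind its values and the first has the most matches. Capitals mark matches on either strand to ATGCAAAT (the octamer of POU factors), TAATTA (a homeodomain core), TAATCC (bound by Otx-type homeodomains), ACAATG (a SOX core), CCGGAA (an ETS core) and TATAAA.
Otx2, chr14:48665060-48665359, minus strand: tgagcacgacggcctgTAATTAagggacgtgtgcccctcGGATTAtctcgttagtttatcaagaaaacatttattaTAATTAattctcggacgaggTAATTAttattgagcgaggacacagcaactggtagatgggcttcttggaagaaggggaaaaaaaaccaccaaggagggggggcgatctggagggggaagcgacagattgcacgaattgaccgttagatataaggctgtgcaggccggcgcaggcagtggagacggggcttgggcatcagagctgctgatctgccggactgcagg
Otx2, chr14:48662685-48662984, minus strand: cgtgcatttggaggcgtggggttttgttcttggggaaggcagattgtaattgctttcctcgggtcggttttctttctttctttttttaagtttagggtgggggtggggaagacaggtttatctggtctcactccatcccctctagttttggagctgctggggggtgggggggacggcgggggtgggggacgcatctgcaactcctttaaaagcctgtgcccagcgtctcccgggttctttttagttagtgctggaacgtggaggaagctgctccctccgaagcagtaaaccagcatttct
Gbx2, chr1:89931127-89931426, minus strand: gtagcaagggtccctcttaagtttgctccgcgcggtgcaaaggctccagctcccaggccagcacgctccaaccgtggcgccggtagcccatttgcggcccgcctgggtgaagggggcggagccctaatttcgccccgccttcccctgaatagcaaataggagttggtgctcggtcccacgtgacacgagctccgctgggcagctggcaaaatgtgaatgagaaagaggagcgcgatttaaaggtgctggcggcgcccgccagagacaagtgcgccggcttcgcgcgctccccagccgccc
Fgf5, chr5:98253934-98254233, plus strand: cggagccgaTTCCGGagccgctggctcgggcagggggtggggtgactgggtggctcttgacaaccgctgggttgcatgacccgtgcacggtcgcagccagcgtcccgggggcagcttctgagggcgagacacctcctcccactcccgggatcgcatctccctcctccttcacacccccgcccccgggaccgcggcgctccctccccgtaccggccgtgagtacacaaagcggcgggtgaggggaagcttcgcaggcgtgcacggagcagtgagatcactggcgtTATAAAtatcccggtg

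The first Otx2 stretch holds 4 matches, TAATTA 3 times and GGATTA, the reverse complement of TAATCC, once. Over all 32851 listed promoters of this length 5.29% hold TAATTA and 7.06% hold TAATCC or its complement. Those shares are per promoter, while the first Otx2 stretch has the most matches of 4 listed, so they are not a like comparison. Neither the other Otx2 stretch shown nor that of Gbx2 has a match to any of the 6. Of the Otx2 starts not shown, the most upstream holds TATAAA and TAATTA, and the other has no match. The Fgf5 stretch holds TATAAA just after the start and TTCCGG, the complement of CCGGAA, near its far end, and those letters occur in 13.62% and 14.9% of promoters. The octamer is in none of the 10 stretches listed for the 6 genes and in 1.74% of all promoters. The stretch of Gbx2 has 27 CpG dinucleotides and that of Fgf5 29, against 16 and 11 in the Otx2 stretches shown and a median of 7 over all promoters.

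Fgf5, the secreted growth factor that marks the epiblast once naive pluripotency is left, had a brief course with its high point in the first hours. Its value was 0.035, 0.414, 0.305, 0.144, 0.058, 0.075 and 0.092, from about 12, 72, 49, 45, 12, 17 and 34 reads. The libraries at 2, 4 and 6 h were above all the others, and from 14 h on the value was lower again, though above that of 0 h. At 2 h it was 11.7 times that at 0 h, with an exact 95% interval of 6.31 to 23.7. At 48 h it was 2.61 times the 0 h value (1.32 to 5.54). The span of this gene is long, so its value per kilobase is low for its read number. On reads the difference of the 14, 24 and 48 h libraries from those at 2, 4 and 6 h was -1.70 ± 0.49 on the log2 scale and did not pass (SE, adjusted p = 0.137 by limma-voom). The straight line over all 7 libraries gave 0.03 ± 1.13 on reads (adjusted p = 0.988 by limma-voom), since the course goes up and then down.

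Tcf15, a basic helix-loop-helix factor of somites that in embryonic stem cells marks those ready to leave the naive state, was at 0.588, 3.04, 2.30, 1.73, 2.04, 2.07 and 2.44. The 0 h library was the lowest by far and the 2 h library the highest, and the 6 later libraries lay within 1.73 and 3.04. The value at 2 h was 5.17 times that at 0 h, and about 128 and 49 reads scaled to depth gave 5.1 with an exact 95% interval of 3.64 to 7.25. The fitted log2 change was 0.68 ± 0.38 (SE, adjusted p = 0.308 by limma). It was -0.20 without the 0 h library (adjusted p = 0.818 by limma) and -0.17 after the GC correction (adjusted p = 0.88 by limma). At 65.8% its transcript has the highest GC content of the 8. Whether the low 0 h value goes with the low level of GC-rich genes in that library was not tested beyond this fit.

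Zic2 and Zic5, zinc-finger genes that lie side by side on chromosome 14 and act in the anterior neural plate, had different courses. Zic2 was at 8.09, 16.1, 15.4, 9.89, 16.1, 11.5 and 14.0, from about 479 to 997 reads. It was lowest at 0 h, and the libraries of 6 h and 24 h were below their neighbours in time. Its fitted log2 change was 0.42 ± 0.37 (SE, adjusted p = 0.525 by limma), and -0.24 ± 0.41 with the GC trend removed. Zic5 was at 1.94, 3.68, 2.51, 2.47, 3.85, 4.78 and 5.26. It too was lowest at 0 h, and the 3 libraries from 14 h on were above all earlier ones. Its fitted change of 1.03 ± 0.28 did not pass (SE, adjusted p = 0.101 by limma), nor did the one on reads of 1.39 ± 0.37 (adjusted p = 0.0638 by limma-voom). After the GC correction it was 1.02 ± 0.25 (adjusted p = 0.092 by limma), nearly as before, and its transcript has a GC content of 49.8%.

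Foxd3, a forkhead repressor of pluripotent cells and neural crest, was at 4.56, 5.20, 4.13, 7.02, 6.81, 3.51 and 9.76. It was highest at 48 h and lowest at 24 h, next to it in time. The fitted log2 change was 0.57 ± 0.42 (SE, adjusted p = 0.427 by limma) and turned to -0.26 ± 0.22 after the GC correction (adjusted p = 0.566 by limma). Without the 48 h library it was 0.02 and without the 24 h library 0.99 (adjusted p = 0.995 and 0.0805 by limma). The gene holds a small RNA gene, Gm23366, on its own strand. The GC content of its transcript, 65.1%, is above that of 98.9% of tested genes, and its high libraries at 6, 14 and 48 h are the 3 in which GC-rich genes lay above their own mean.

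Sall2, a zinc-finger factor of the spalt family, was at 0.875, 0.689, 0.773, 0.894, 0.875, 1.11 and 2.15. It stayed under 1 up to 14 h and was highest at 48 h, at 2.46 times the 0 h value (exact 95% interval 1.85 to 3.31, from about 179 and 67 reads). The fitted log2 change of 0.65 ± 0.25 did not pass (SE, adjusted p = 0.182 by limma). It was 0.22 without the 48 h library (adjusted p = 0.887 by limma) and 0.31 after the GC correction (adjusted p = 0.534 by limma). On a linear scale of hours it was 0.81 and passed (adjusted p = 0.0354 by limma), in a fit where 2.53% of all genes rose. The second transcript starts further upstream and has a longer span, in which nearly all of the shorter one lies. Its values were 0.173, 0.188, 0.195, 0.284, 0.220, 0.270 and 0.665, so both rows were highest at 48 h. In reads the shorter transcript had about 67, 27, 28, 63, 41, 57 and 179 and the longer about 45, 25, 24, 68, 35, 47 and 189. How reads were split between the rows is not stated in the sources used here.

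**Figure D2:**
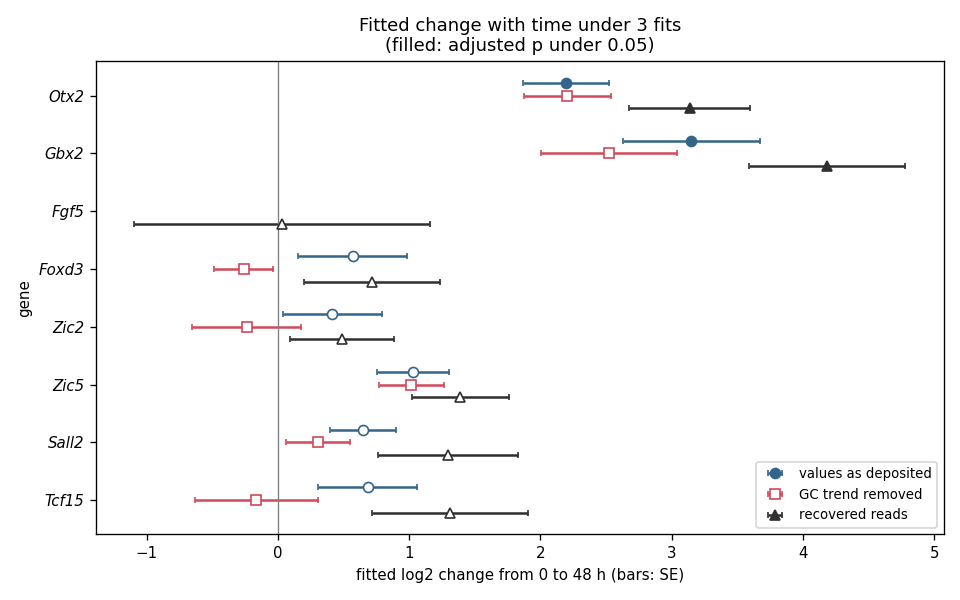
Fitted log2 change from 0 to 48 h (horizontal axis, bars are SE) of each gene with the values as deposited, with the GC trend of each library removed, and on recovered reads, with filled symbols for an adjusted p under 0.05. Otx2 stands at 2.19, 2.21 and 3.14 in the 3 fits, while Foxd3, Zic2 and Tcf15 change sign with the GC trend removed.

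The lit libraries alone were then compared, those at 14, 24 and 48 h against those at 2, 4 and 6 h, with the 3 times on each side standing in for replicates. This leaves out the 0 h library but shares the other 6 with the trend test, so the results are not independent of each other. Otx2 was higher late, at a mean of 6.13 ± 2.52 (SD, n = 3) against 1.74 ± 0.12 (SD, n = 3). Its log2 difference was 1.33 ± 0.24 (SE) and it was called (adjusted p = 0.0439 by limma), as it was after the GC correction (1.35, adjusted p = 0.0248) and on reads (1.78, adjusted p = 0.042). Of all genes 0.627% and 0.774% were called up in those fits. Leaving out 2, 4, 6 or 24 h ended the call, at adjusted p = 0.121, 0.214, 0.0713 and 0.125 by limma. Those fits called 5, 0, 17 and 1 of all 6409 genes up, against 16 with all 6 lit libraries. With all 6, Otx2 was the 1 member called of 7 tested, while 0.25% of all tested genes were called up. Gbx2 had the larger difference, 1.52 ± 0.45, and did not pass (SE, adjusted p = 0.228 by limma), its late libraries ranging from 5.604 to 27.9. Whether the differences of Otx2 and Gbx2 themselves differ was not tested. Otx2, Gbx2 and Zic5 had every late library above every early one, 3 of 7 tested members, which held for 7.79% of tested genes. Zic5 differed by 0.54 ± 0.19 (adjusted p = 0.332), Sall2 by 0.38 ± 0.19 (adjusted p = 0.521) and Foxd3 by 0.19 ± 0.31 (adjusted p = 0.873), all by limma. The differences of Zic2 and Tcf15 were 0.02 ± 0.23 and -0.06 ± 0.18 (adjusted p = 0.981 and 0.935 by limma).

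Ratios to the 0 h library were then taken with 1 added to each value, without a test since each sets 1 library against 1. The median log2 ratio of the members counted was 0.79, 0.47, 0.41, 0.93, 0.95 and 1.09 at 2, 4, 6, 14, 24 and 48 h, while that of all genes counted lay between -0.06 and 0.04. Gbx2 and Tcf15 were at least 2-fold higher at 2 h, out of 6 members that reached 1 in one of the pair of libraries, and of all such genes 1.81% were. At 4 h Tcf15 was (1.16% of all genes) and at 6 h no member was (2.33%). At 14 h and again at 24 h Otx2 and Gbx2 passed that fold, against 2.1% and 2.28% of all genes. At 48 h it was passed by Otx2, Gbx2, Zic5 and Tcf15, 4 of 7 members, against 8.27% of all genes. No member was 2-fold lower in any library, and the share of all genes that were lower was not counted. Since the 0 h library enters every ratio, its own low level bears on all of them: 5 of the 7 tested members were lowest at 0 h, as were 17.5% of tested genes, and 5 of 7 were highest at 48 h, as were 24.6%. Against the mean of 2, 4 and 6 h in place of 0 h, 0, 2 and 2 members were at least 2-fold higher at 14, 24 and 48 h. The share of all genes was not counted with that reference. The GC-rich genes were lowest at 0 h and highest at 48 h as well. The GC trend was removed only in the limma fits, so the part of GC content in these counts was not tested.

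**Figure D3:**
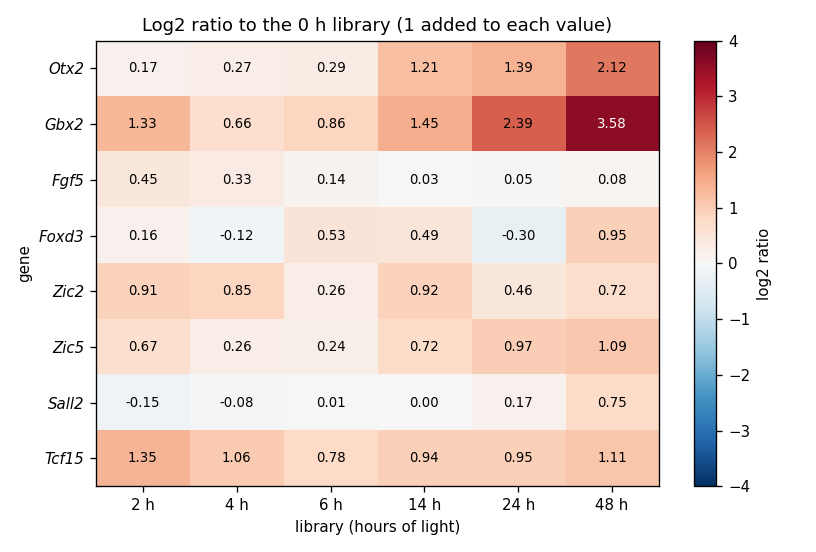
Log2 ratio of each later library (columns) to the 0 h library for the 8 genes (rows), with 1 added to each value. Gbx2 goes from 1.33 at 2 h to 3.58 at 48 h, and Tcf15 has 1.35 in the 2 h column and 1.11 in the last.

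**Figure D4:**
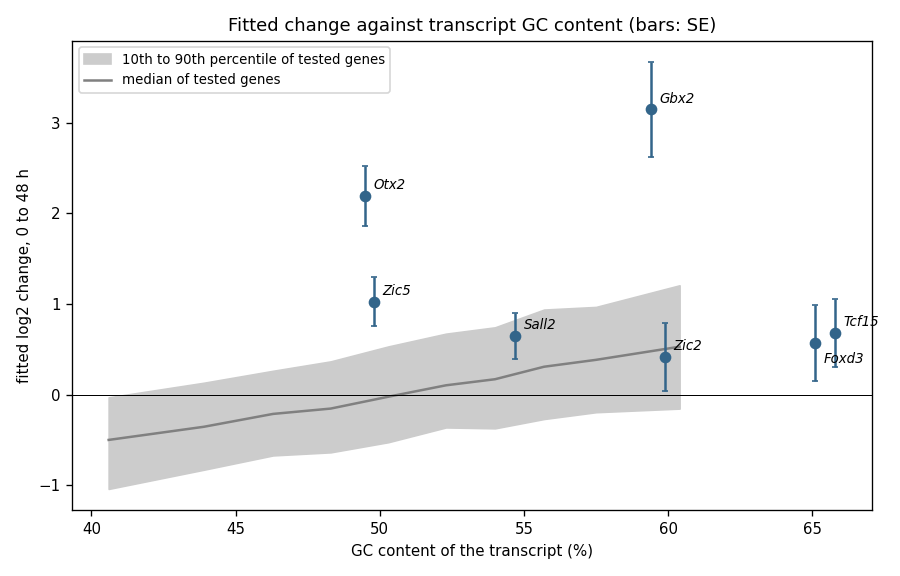
Fitted log2 change from 0 to 48 h against the GC content of the transcript for the 7 tested members (points, bars are SE), with the median and the 10th to 90th percentiles of tested genes in 10 bins of GC content. The median of all genes goes from -0.50 in the lowest bin to 0.53 in the highest, and Otx2, Gbx2 and Zic5 lie above the shaded range.

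Of 20 relatives of the 8 genes, paralogs and FGF receptors among them, 6 were tested, and in the trend test by limma 0 rose and 0 fell, with 2 at an unadjusted p under 0.05. On reads 1 of 16 rose, the receptor gene Fgfr2 (0.027 to 0.154, adjusted p = 0.0411 by limma-voom). Zic1 lay between 0.386 and 0.663 and Zic4 at or under 0.119. Among the spalt genes, Sall4, a core pluripotency factor, was at 13.3 in the first library and 25.2 in the last (adjusted p = 0.249), Sall3 at 3.84 and 8.13 (adjusted p = 0.136) and Sall1 at 20.2 and 23.2 (adjusted p = 0.643), all by limma. Otx1 stayed between 0.131 and 0.308, Crx between 0.188 and 0.318 and Gbx1 at or under 0.042. Fgf4, the FGF that stem cells themselves secrete, lay between 49.8 and 104.8 and was highest at 2 h, as Fgf5 was. Fgf8 was at or under 0.117 in every library.

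Among 21 other genes of the formative and primed states, 12 were tested, 2 rose and 0 fell, with a median log2 change of 0.40. Sox3, a SoxB1 factor (0.716 to 17.2, adjusted p = 0.00407 by limma), and the claudin gene Cldn6 (2.14 to 18.5, adjusted p = 0.0364 by limma) were the risers. The formative POU factor gene Pou3f1 had a fitted log2 change of -2.44 and did not pass (adjusted p = 0.239 by limma). It was at 270.5, 117.5, 152.1, 188.9, 445.6, 100.4 and 17.96 in order of time. Like Pou3f2, Pou3f1 was highest at 14 h and lowest at 48 h. On reads 5 of 19 rose and 0 fell, which added Sox4, Utf1 and the DNA methyltransferase gene Dnmt3b (0.295 to 0.992, adjusted p = 0.0468 by limma-voom). Of 18 genes of the anterior neural ectoderm, 13 stayed under 1 in every library. Low values were common, since 6409 of all 20290 genes reached a mean of 1. The share of all genes under 1 in every library was not counted. Of the 4 anterior neural genes tested, 0 were called by limma and 1 had an unadjusted p under 0.05. On reads 1 of 14 rose, the zinc-finger gene Sp8 of the anterior neural ridge (adjusted p = 0.0359 by limma-voom), which was at 0.161, 0.105, 0.068, 0.023, 0.510, 2.09 and 2.85. Its late libraries, like those of Otx2, were above all earlier ones. Hesx1, a homeobox gene of the anterior plate, was highest at 0 h (7.53) and at 1.42 at 48 h, and Pax6 was at or under 0.072. Of the 13 midbrain and hindbrain genes 9 stayed under 1 in every library, with the same limit. By limma 0 of 3 tested were called (1 at an unadjusted p under 0.05). On reads Irx3 rose (0.128 to 2.88, adjusted p = 0.0288 by limma-voom).

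The naive genes, with which the formative factors are usually contrasted, gave 0 rises and 0 falls among 16 tested by limma, with 3 at an unadjusted p under 0.05, 3 positive changes and a median of -0.36. On reads 1 of 16 fell, Dppa2 (23.9 to 7.30, adjusted p = 0.0353 by limma-voom). The summed value of these 16 genes was 405.1 at 0 h, highest at 2 h (610.7), lowest at 14 h (291.4) and 467.6 at 48 h. Fgf5 and Tcf15 were also highest in the 2 h library. Nanog stood at 81.4 in the 0 h library, was lowest at 14 h (33.4) and reached 67.3 at 48 h. So Nanog and Otx2 were both well above 0 at 48 h, and in bulk RNA it cannot be told whether the same cells held both, nor can fewer cells of a type be told from less RNA per cell.

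The neuronal, mesendoderm, neural crest and fibroblast lists had their highest sum at 48 h, where Otx2 and Gbx2 were highest too. That of primitive endoderm was highest at 4 h. Of the regional lists above, the sum was highest at 48 h for the anterior neural ectoderm (63.4). For midbrain and hindbrain it was highest at 14 h (10.9, against 8.20 at 48 h). In the mesendoderm, neural crest and fibroblast lists a single gene (Foxa2, Sox9 and Col1a2) made up most of the 48 h sum. The summed value of 10 neuronal genes was lowest at 0 h (11.2) and highest at 48 h (134.0), with Neurod1 and Insm1 called up among 5 tested (adjusted p = 0.0413 and 0.0491 by limma). On reads 4 of 7 neuronal genes rose, which added Map2 and Nhlh1 (adjusted p = 0.00772 and 0.031 by limma-voom). That of 11 mesendoderm genes ran from 3.53 at 14 h to 8.12 at 48 h, in which Foxa2 went from 0.115 in the first library to 4.62 in the last (adjusted p = 0.0657 by limma, 0.00597 by limma-voom on reads), and the mesoderm factor T was at or under 0.0997. The sum of 10 neural crest genes ran from 2.10 at 14 h to 4.74 at 48 h, of which Sox9 was 2.55. Sox10, the defining factor of neural crest, was at or under 0.034. The sum of 8 primitive endoderm genes stayed between 0.594 and 1.48, with Gata6 at or under 0.034. That of 9 fibroblast genes was 0.634 at 14 h and 3.56 at 48 h, of which Col1a2, called up on reads (adjusted p = 0.00824 by limma-voom), was 2.16, and Lum was listed at 0 in each library but the last. The part of such cells in the members' rise was not tested.

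The genes most like each member were sought among 1318 named genes with a mean of at least 10, by Pearson correlation of log2(value + 1) over the 7 libraries, as a description. All of these points share the same 7 libraries with their depth and GC content. For Otx2 they were Prdx2 (r = 0.98), Mrpl53 (0.974) and the linker histone gene H1f0 (0.973), which went from 16.8 at 0 h to 56.9 at 48 h. For Gbx2 they were Smarcd1 (0.978), Nt5dc2 (0.971) and Mrpl34 (0.97). Zic5 was followed most closely by Phf5a (0.976), the desaturase gene Scd1 (0.976) and the corepressor gene Rcor2 (0.969), and Zic2 by Eef1g (0.946), Pabpn1 (0.873) and Epop (0.849). For Foxd3 the nearest were Jmjd8 (0.967), Reep4 (0.966) and Eef2 (0.961), for Sall2 Rtl8a (0.967), Ciao2b (0.959) and Mdk (0.956), and for Tcf15 Zfp36l2 (0.93), Hdgf (0.927) and Pes1 (0.921). Among the members themselves, Gbx2 went with Zic5 (0.942) and Otx2 (0.932), and Zic2 with Tcf15 (0.859) and not with its neighbour Zic5 to the same degree (0.525).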

How the data were processed

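Messenger RNA of E14 cells was sequenced in 7 libraries, 1 per time point. Per the submitters' processing notes, reads were aligned to mm9 with Bowtie2; the version, the counting method and the use of strand are not stated in the sources used here. No unit is named for the values the authors deposited. Multiplied by the transcript's genomic span (GRCm38) and a factor per library, 79.5% to 81.2% of values between 2 and 20 reads came within 0.1 of a whole read, where 20% would if spread evenly, and read numbers and depth were taken from this fit. The spans differ from those of mm9, so read numbers are approximate. Of 30673 rows, 3320 start-site rows at 0, 695 further placements and 417 transcripts without a symbol were left out.

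Tests were run with limma 3.58.1 in R 4.3.3 (lmFit, then eBayes with trend, on values of mean 1 or more with pseudocount 1), with p-values adjusted over all genes tested. The tests treat single libraries at different times as replicates around a line or within the early or the late set. To correct for GC, a natural spline (5 degrees of freedom) was fitted per library to the deviations of 2446 genes with a mean of 5 or more and subtracted, for the 99.6% of tested genes whose GC content was available. The functions were tested on simulated data. Genes of other lists were named where called, otherwise up to 4 of the largest changes with a mean of at least 5, and a few more after their values were seen, among them those called on reads. The members, the lists and this rule were chosen with earlier results of these data known, so none is independent support. Alternatives were another pseudocount, filter, normalization, transcript row, time scale, GC correction, reference or tool, and each library left out.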

Additional observations from a re-analysis of the deposited data

How the results depend on the processing

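The trend calls of Otx2 and Gbx2 depend on the setting. Both were kept with pseudocount 0.1, with the mean of all transcript rows, on recovered reads and without the 6 h or the 14 h library. The count of members called was 0 with pseudocount 5, with no filter on low values, with quantile normalization and with the GC trend removed, and 3 in linear hours. Over all genes those fits called 0, 0, 1, 0 and 162 up, against 19. With 1 library left out, 0 to 2 members were called, and 1 to 52 of all genes were called up. For late against early light the count of members was 1, and 0 with pseudocount 5 and with no filter. Over all genes 16, 2 and 1 were called up in those fits. With 1 library left out, late against early, the count was 0 to 1 for members and 0 to 21 up for all genes. Why the counts moved was not tested. With no filter more genes are adjusted for, but the unadjusted p of the trend by limma was higher as well. It was 0.00041 against 5.2e-05 for Otx2 and 0.0013 against 0.00012 for Gbx2. No alternative turned the direction of Otx2, Gbx2, Zic5 or Sall2. Sall2 fell under the filter with the mean of all rows.

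The trend turned in sign for Fgf5 on reads (0.03, against -0.14 with no filter), for Foxd3, Zic2 and Tcf15 with the GC trend removed (-0.26, -0.24 and -0.17), and for Zic2 and Tcf15 without the 0 h library. With 1 library left out, Zic2 ran from -0.21 to 0.62 and Tcf15 from -0.20 to 0.98. Late against early it turned for Foxd3 with the GC trend removed (-0.10) and without the 48 h library (range with 1 library left out -0.10 to 0.53). It turned for Zic2 with quantile normalization (-0.04), with the GC trend removed (-0.19) and without the 6 h (-0.18) or 14 h library (-0.08; highest 0.14 with 1 library left out), and for Tcf15 without the 2 h library (0.08). None of these was called in any fit. With 0.1 added, members at least 2-fold above 0 h numbered 2, 1, 2, 3, 4 and 6 at 2, 4, 6, 14, 24 and 48 h. With 1 added and the mean of 2, 4 and 6 h as reference, they numbered 0, 2 and 2 at 14, 24 and 48 h. The share of all genes was not counted in either setting, so these counts have nothing to be set against.

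No paired analysis was possible because each group has 1 library and the labels give no replicate numbers. Read numbers of about 70 or fewer stand behind most Fgf5 and Sall2 values, Otx2 at 2 and 4 h, Gbx2 at 0 and 4 h, Foxd3 at 4 h and Tcf15 at 0 h.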
